A study of Arabidopsis thaliana with 6 samples.

Results

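The transcripts of wild-type Arabidopsis thaliana seedlings were ranked by their signal on 3 ATH1 arrays, out of 6 arrays in the series, whose other 3 hybridised a mutant and enter no result. Each array held RNA from about 80 mg of whole seedlings of the Nossen (No-0) accession, light-grown and 5 days old, with no treatment named, and about 6 µg of total RNA was labelled with biotin. The labels number the samples 1 to 3 without saying whether the plants were grown apart, so the spread given here is that between 3 samples and may be partly technical. Control probe sets were dropped and probe sets paired with exactly 1 gene were kept, which left 13513 of 22810 probe sets, for 13356 different genes, ranked by their mean MAS5 signal. MAS5 signal is the array maker's summary of the brightness of the probes for a transcript, on a linear scale, and values listed for a gene are those of replicates 1, 2 and 3 in that order. It depends on the probes as well as on the transcript, so a rank places a probe set and does not measure how many transcripts a gene makes.

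A light-grown seedling of this age has green cotyledons and a young root, and has largely used up the reserves laid down in the seed. Its chloroplasts take their photosynthetic complexes from 2 genomes: the plastid genome encodes the core subunits, and the nucleus encodes the antenna proteins, many small subunits and most enzymes of carbon fixation. Cytosolic ribosomes, whose proteins are encoded by small families of near-identical nuclear genes, make the proteins of the growing plant. Genes of seed maturation (late embryogenesis abundant proteins, oleosins and storage proteins) are known for high transcript levels in the ripening embryo that fall during germination.

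The 3 arrays were alike in level. The median signal of the ranked probe sets was 139.7, 145 and 142 in replicates 1, 2 and 3, and Pearson's r of log2(signal + 16) over them was 0.97 for each pair of arrays. The mean signal ran from 0.133 to 35025, with a median of 143, a 10th percentile of 9.93 and a 90th percentile of 1107. The 100 highest probe sets, 8574 and above (the next was at 8569), held 18.9% of the summed signal. The gene table used here leaves many bright probe sets unnamed: of the 100 brightest of all 22746 probe sets that are not controls, 27 had 1 gene and 69 had none listed. The ranking says nothing of those, and 2 probe sets without a listed gene were brighter than its highest member. Markers were set beside the label without a test. The 10 nuclear thylakoid genes, listed with the ranking in view, had a median of 14112. The 3 root markers measured lay between 126 and 239.8, around the median of 143. The 4 stomatal and epidermal markers lay between 21.2 and 118.5, and the 4 flower and pollen markers between 4.5 and 19.0.

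**Figure D1:**
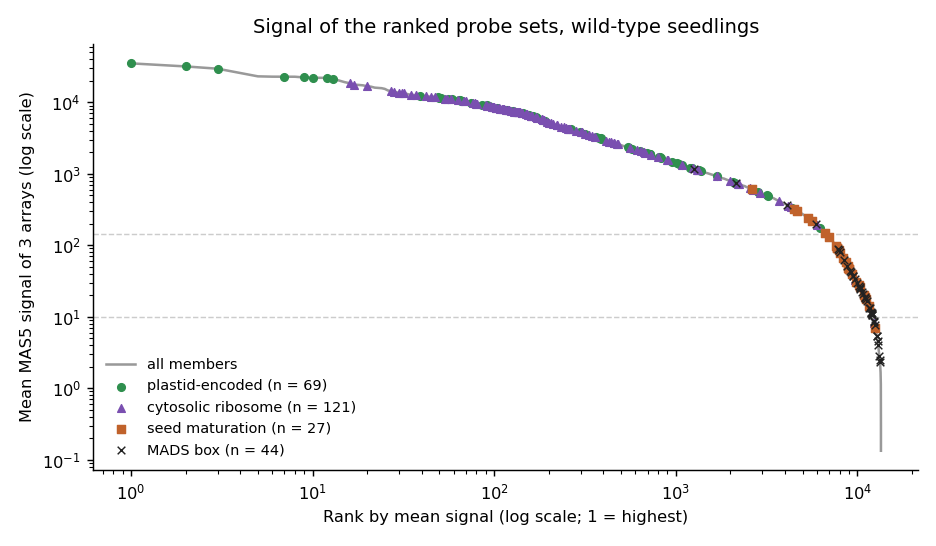
Mean MAS5 signal over the 3 wild-type arrays (log scale) against rank (log scale) for the 13513 probe sets with 1 gene. Plastid-encoded and cytosolic ribosomal genes crowd the first 1000 ranks, while seed maturation and MADS-box genes lie mostly below the median of 143 (upper dashed line) and some below the 10th percentile of 9.93 (lower dashed line).

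Photosynthesis and protein synthesis filled the top of the ranking. Of the 100 highest probe sets, 24 were plastid-encoded, 13 belonged to nuclear genes of the thylakoid or of carbon fixation and photorespiration, and 29 to cytosolic ribosomal proteins, 66% in all. The same genes made up 1.55% of all ranked probe sets and 20.5% of the summed signal. Their share was smaller at each lower range of ranks: 70% of the first 50, 62% of ranks 51 to 100, 48% of ranks 101 to 200, 11.7% of ranks 201 to 500 and 4.2% of ranks 501 to 1000. These lists were assembled with the ranking in view, so the shares describe it and test nothing. In the middle of the ranking, from the 45th to the 55th percentile (signal 108 to 186), 1 of 1352 probe sets was of these genes, and in the lowest 10% 1 of 1353. The counts also depend on which probe sets had a gene listed. Only 10 of 56 nuclear thylakoid loci and 9 of 35 of the Calvin cycle and photorespiration were ranked, against 69 plastid-encoded genes. They therefore do not compare plastid-encoded with nuclear photosynthesis transcripts.

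The highest ranked gene was atpB, which encodes the beta subunit of the chloroplast ATP synthase, with signals of 33921, 34540.3 and 36613. The mean was 35025 ± 1409.9 (SD, n = 3), a coefficient of variation of 4.03%. After it came atpE, the epsilon subunit of the same enzyme, at 26245, 32842 and 36069. Then came psbM, a small subunit of photosystem II, at 17865, 35165 and 35432, so its place rests on replicates 2 and 3. A further 5 plastid genes stood among the 25 highest. The NDH complex subunit ndhI was at 20417, 24353 and 23547, and petB, cytochrome b6, at 17981, 23395 and 25355. The ribosomal protein gene rpl33 was at 19382, 22503 and 24233, the photosystem I core gene psaB at 18634, 23604 and 23581 and the photosystem II gene psbK at 18191, 23408 and 22411. In all 5 replicate 1 was the lowest.

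The highest ranked nuclear gene was RCA, rubisco activase, which keeps the carbon-fixing enzyme in its active state, at 23992, 25732 and 27420.0, or 25714 ± 1714 (SD, n = 3). Among the 25 highest, the nuclear thylakoid genes were AT2G26500, the cytochrome b6f subunit PetM, at 21235, 21571 and 25468, and PSAE-1, a stromal subunit of photosystem I, at 19714, 22178 and 24042. LHCB4.1, a minor antenna protein of photosystem II, followed at 20447, 18999.8 and 20963. On every array each of these stood over 100 times above the median gene. ATPC1, the gamma subunit of the chloroplast ATP synthase, was at 17450.2, 16560.1 and 18388, and AT4G01150, the protein CURT1A that bends grana margins, at 15021, 14516 and 16634. HPR, the peroxisomal hydroxypyruvate reductase of photorespiration, was at 16984, 15606 and 16976.

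The remaining genes of the first 25 had other roles. PRXR1, a class III peroxidase, was at 21775, 23755 and 23625. PYK10, the beta-glucosidase of the ER bodies known from roots and seedlings, was at 22768, 22006 and 23648. GAPC2, cytosolic glyceraldehyde-3-phosphate dehydrogenase, was at 15736, 17341 and 18642. Their coefficients of variation were 4.80, 3.60 and 8.44%. The cytosolic ribosome had 3 genes here, AT5G20290 (eS8) at 17302, 18416 and 19656, AT3G60245 (eL43) at 16587, 16868 and 19419 and AT1G52300 (eL37) at 18476, 15518 and 16209. AT4G23670, of the major latex protein family, was at 19235, 19866 and 18354, and CCL, whose transcript is known to cycle over the day, at 16457, 14837 and 16776. AT2G45180, of the lipid transfer protein family, was at 14196, 17253 and 16129, and AT1G78040, of the pollen Ole e 1 allergen family, at 14761, 15693 and 16773, so a family named for pollen had a member among the 25 highest of a seedling.

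Plastid-encoded genes were measured by 69 probe sets, each for a different gene. Their median was 5413, against 143 over all, 61 of 69 exceeded 1000 and none lay below the median of all ranked probe sets. The complexes differed less from each other than the genes within each. Photosystem I (5 genes) had a median of 6374 and ran from psaC at 1404 to psaB at 21939.7. Photosystem II (15 genes) had a median of 6102 and ran from psbN at 563 to psbM at 29487. Among the others, the ATP synthase (6 genes) had 8301, the cytochrome b6f complex (6 genes) 4172, the plastid ribosome (15 genes) 6195, the NDH complex (10 genes) 2220.1 and the plastid RNA polymerase (4 genes) 2169. The lowest plastid gene was ndhF, a subunit of the NDH complex, at 187, 139.9 and 201, close to the median gene. The neighbours petB and petD of the same operon had means of 22244 and 505. The photosystem II gene psbA lay below the median of its complex. The gene rbcL, for the large subunit of rubisco, lay below the median of 5709 of the 8 plastid genes outside these groups. The order of the plastid genes is therefore one of probe sets and does not rank their transcripts by abundance.

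The mitochondrion-encoded genes listed lay far lower. Their 23 probe sets, for 16 genes, had a median of 81.7 and none exceeded 1000. This list took symbols of the nad, cox, ccb, matR and orfX kinds alone. The plastid list also held ATP synthase and ribosomal protein genes, so the lists are unlike in make-up. The highest were ccb382, of cytochrome c maturation, at 318, 620.0 and 608, nad4, of respiratory complex I, at 385, 488 and 419, ccb452 at 249, 301 and 268 and cox1, of cytochrome c oxidase, at 189, 333 and 276. The intron maturase matR was lowest, at 3.6, 3.7 and 3.8. It lay among the lowest 10% of ranked probe sets, while the plastid maturase matK was among the 100 highest. The matR value rests on 1 probe set that may match several transcripts. Probe sets for nad1 had means from 29.8 to 221, so this contrast may lie in the probe sets.

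The nuclear genes of the thylakoid and of carbon fixation were high with few exceptions. Of the 10 thylakoid genes 9 and all 9 genes of the Calvin cycle and photorespiration exceeded 1000. The antenna genes LHCB4.1, LHCB4.2 and LHCB4.3 had means of 20136 ± 1018 (SD, n = 3), 6339.7 ± 354 (SD, n = 3) and 626 ± 43.9 (SD, n = 3), and their values did not overlap on any array. LHCB4.3 was the lowest of the thylakoid genes. The lowest of the Calvin cycle and photorespiration genes, AT2G35120, an H protein of mitochondrial glycine decarboxylase, was at 1895, 2014 and 1854. Its paralog AT1G32470 was at 10051, 9174 and 9896.

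Cytosolic ribosomal proteins were measured by 121 probe sets for as many genes, with a median of 5755 and quartiles of 2156 and 8372. Of these 66 exceeded 5000, 37 lay between 1000 and 5000, 12 between 100 and 1000, and 6 below 100. The fourth highest, AT1G01100, an acidic stalk protein, was at 13907, 13452 and 15649. The 6 below 100 were each of a multigene family, and the lowest of all, AT3G10950, was at 11.4, 1 and 12.1. The other low ones were AT2G47570 at 14.2, 18.5 and 63.6, AT3G51190 at 38.6, 6.5 and 51.4 and AT3G48960 at 49.3, 42.2 and 5.6. AT2G16360 was at 61.6, 57.1 and 23.5 and AT1G36240 at 61.0, 43.0 and 42.9, and these 6 were named after their values were seen. Near-identical paralogs can share probes, so the level of a single family member is uncertain in either direction.

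Some genes stood far above or below their own family in other groups too. Of 8 histone probe sets, the H2B genes HTB4 and HTB1 were highest at 2524, 2372 and 2640.0 and at 1139.5, 1319 and 1702, and MGH3, a histone H3 known from male gametes, was lowest at 13.9, 23.0 and 3.8. Of 9 tubulin and actin probe sets, TUA6 was at 8065, 7618 and 7385 and TUB6 at 3085, 3610.4 and 3173, and ACT12, an actin known from pollen, at 26.4, 3.4 and 8.6. These were the lowest of both lists, but TUA1, an alpha-tubulin also known from pollen, lay above the overall median with a mean of 395. Of 15 genes of redox control and metal binding, all exceeded the overall median, from MT1C, a metallothionein, at 12660.3, 11317 and 12382, and GRXC2, a glutaredoxin, at 8231, 6928 and 8075, down to TY1, a plastid thioredoxin, at 208, 173 and 247. Central metabolism (9 genes) ran from cICDH, the cytosolic isocitrate dehydrogenase, at 14208, 12242 and 12899, and AT5G58330, the chloroplast malate dehydrogenase, at 6259.8, 5359 and 6391, to IDH-III, a subunit of mitochondrial isocitrate dehydrogenase, at 6.3, 3.1 and 7.2. The jacalin-type lectins JAL22 and JAL34, known from complexes with PYK10, were at 6532, 6947 and 6296 and at 6594, 6739 and 6380.1, and JAL23 of the same list of 6 at 126, 111 and 105.

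**Figure D2:**
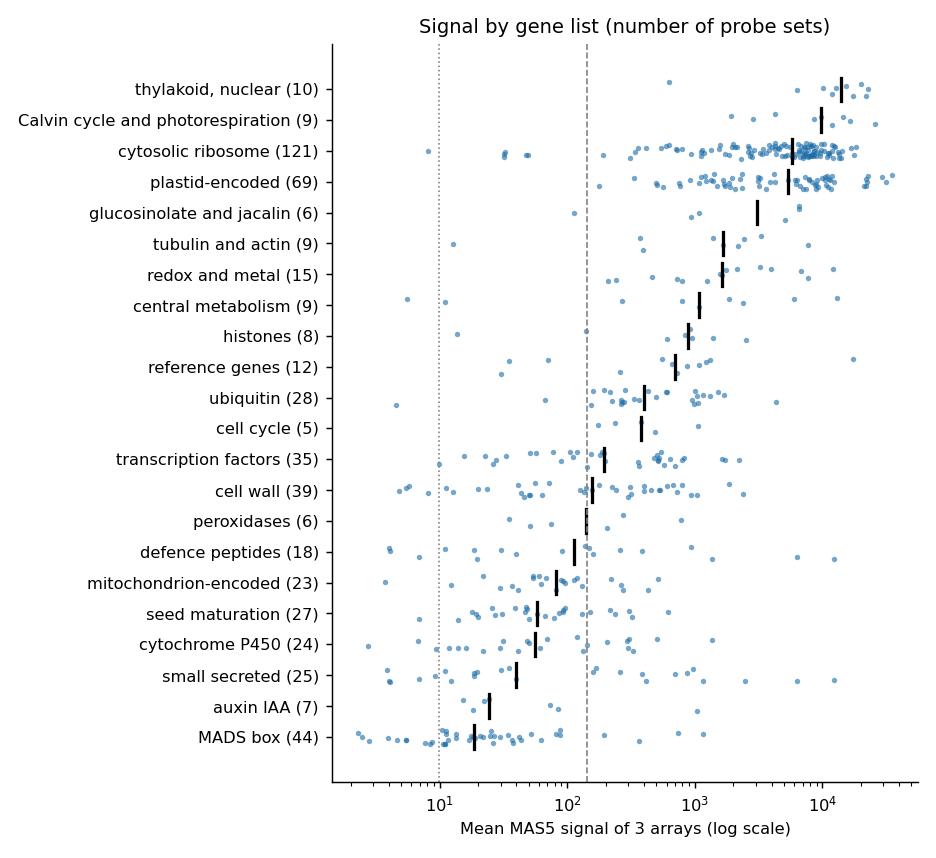
Mean MAS5 signal over the 3 arrays (log scale) of each probe set by gene list, with the number of probe sets in brackets. Points are probe sets, black bars list medians, the dashed line the median of all ranked probe sets (143) and the dotted line their 10th percentile (9.93). Medians run from 14112 for nuclear thylakoid genes to 18.6 for MADS-box genes.

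Other lists had medians above the middle of the ranking or near it. The 28 genes of ubiquitin conjugation and removal had a median of 397 and 26 lay at or above the overall median. Their highest were the conjugating enzymes UBC28 at 4669, 4586 and 3675, UBC22 at 1788, 1602 and 1694, UBC30 at 1356, 1649.7 and 1578 and PEX4 at 1257, 1281 and 1408. UBC31 alone of them lay near background, at 6.1, 2.8 and 4.7. The 5 cell division genes had a median of 377 and all lay above the overall median, from KINESIN-13A at 920.5, 1126 and 1146 and the Aurora kinase AUR1 at 435, 491 and 528 to AUR3 at 163, 125 and 234. The 35 bHLH, bZIP and WRKY transcription factors had a median of 193 and spread widely. The highest of them, BZIP53, was at 2085, 2079.7 and 2524, then bHLH115 at 1589.8, 1873 and 1696, ILR3 at 1361, 1766 and 1819 and bHLH104 at 930.3, 776 and 744. The last 3 belong to the bHLH subgroup known for control of iron supply. The lowest, bZIP48, was at 26.7, 1.5 and 1.3.

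Cell wall genes (39 probe sets) had a median of 156 with members at both ends. The expansin EXPA8, which loosens walls, was at 2406, 2534 and 2164, the xyloglucan enzyme EXGT-A3 at 1848, 1798 and 1965, EXPB3 at 977, 1047 and 1080.0 and XTH32 at 820.2, 974 and 1019.8. The expansin EXPA24 was lowest at 6.7, 3.6 and 4, so expansins held both the highest and the lowest place in this list. Peroxidases (6 probe sets, median 141) ran from AT5G64120 at 947, 689.6 and 718 and AT5G66390 at 275, 333 and 218 to AT3G50990 at 38.5, 22.6 and 43.2. PRXR1 was not in that list, which matched other names. Of 12 genes proposed as reference genes for transcript measurements, GAPC2 was highest, PEX4 next, and AT4G38070 lowest at 17.3, 37.2 and 35.4, with a median of 697 and a median SD of 0.13 on the log2(signal + 16) scale.

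The 10 genes nearest the median had means between 142.8 and 143.3. They were AT5G12220, AT1G62730, AT3G23840 (an acyltransferase related to CER26 of wax synthesis), AT2G01460, AT5G01910, AT4G38950 (a kinesin), AT5G47790, NAC014 (a membrane-bound transcription factor of the NAC family), AT2G01580 and AT4G03140. Among the 1352 of the middle class, 154 carried a gene symbol and the others a locus number only. For the median gene AT5G12220 the arrays gave 166, 137 and 126, and for NAC014 192, 130.3 and 106. Both were highest in replicate 1 and lowest in replicate 3.

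Defence peptides split into bright and dim members. Of 18 probe sets, the low-molecular-weight cysteine-rich genes LCR69 and LCR68 were at 13158, 10758 and 13388 and at 6493, 5910.1 and 6686, and LCR59 of the same family at 5.5, 1.6 and 5. The overlapping list of 25 small secreted peptides, which shares 12 probe sets with it, had a median of 39.5. Its next highest were the RALF-like signal peptides RALFL34 at 2312, 2471 and 2647 and RALFL22 at 1107, 1251 and 1129.6, and its lowest was EC1.5, of a family known from the egg cell, at 9.2, 0.9 and 1.5. Of 24 cytochrome P450 probe sets (median 55.9), CYP71B6 was highest at 1221, 1463 and 1410.0, then CYP71B28 at 573, 502 and 450.2, CYP71B5 at 341, 344 and 302 and CYP71B34 at 286, 358 and 269, with CYP79A2 lowest at 2.2, 3.9 and 2.1. The auxin response repressors (7 probe sets, median 24.4) were dim apart from IAA18 at 1032, 1114 and 948. IAA29 was at 68.2, 121 and 64.7 and IAA20 at 22.5, 17.8 and 5.4.

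MADS-box genes, a family of transcription factors known for floral organ identity, were mostly dim. Of 44 probe sets for 42 genes, the median was 18.6, 29 lay below the 25th percentile of 27.9 and 10 in the lowest 10%. Among the exceptions, AGL26 was at 1124, 1098 and 1277 on 1 probe set, with a mean of 11.1 on another. AGL16 was at 357, 369 and 368 and AGL18 at 209, 194 and 184. AT1G30260, which the annotation also calls AGAMOUS-like 79, was at 868, 666 and 697. The symbol AGL79 itself belongs to AT3G30260, so the family membership of AT1G30260 is uncertain. The lowest probe set was one of 2 for AGL79 (AT3G30260), at 2, 2.9 and 2. The flower and pollen markers INP1, SWEET8, ATA27 and SPL had means of 19.0, 14.6, 10.2 and 4.53. The stomatal regulators FMA and SPCH had means of 119 and 91.3, and MUTE, which acts in a brief stage between them, 21.2.

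No detection calls were used, and a level for transcripts that are absent could not be taken from most bacterial controls, because the RNA of lys, phe, thr and dap was evidently added (median of the 27 bacterial probe sets 298, against 195 for all probe sets). The 3 probe sets for trp, whose RNA showed no sign of addition, had means of 1.3, 3.13 and 18.1. In all 2386 ranked probe sets (17.7%) lay at or below 18.1. By annotated type this was 623 of 989 pseudogenes (63.0%) and 1737 of 12443 protein-coding genes (14.0%). The medians were 13.0 for pseudogenes and 175 for protein-coding genes. The brightest pseudogene, AT4G08220, was at 399.7, 506 and 445, and 12 pseudogenes lay at or above the overall median. Of the 10 lowest probe sets, 4 were annotated as pseudogenes (AT4G08100, AT5G51320, AT1G65940 and AT3G42430) and 6 as protein-coding (AT3G19780, AT2G32560, AT1G53420, AT5G39880, AT5G45570 and AT2G34120). Their means ran from 0.133 to 0.867.

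Gene length, taken from RefSeq and not used by the ranking, differed between the classes. The nuclear protein-coding genes among the 100 highest (76 genes) had a median genomic length of 1638 bp (quartiles 1304 and 2146). Those of the middle class (1336 genes) had 2264 bp, those of the lowest 10% (960 genes) 1320 bp, and all 12374 together 2125 bp. Both ends of the ranking thus held shorter genes than its middle. Genes are not independent replicates and no test was made.

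Probe sets listed for the same gene often differed widely in signal. The part of the probes, of different transcripts or of the gene assignment in these differences was not tested. The 146 genes with more than 1 probe set gave 179 pairs, and the median difference of their means on the log2(signal + 16) scale was 1.51, a ratio of 2.85. In 119 pairs (66.5%) it exceeded 1, and in 27 it exceeded 3. The median SD between arrays was 0.21 on the same scale. The 3 most unlike pairs were SDH2-1, a subunit of mitochondrial succinate dehydrogenase, AGL26 and AT4G16980. For SDH2-1 the brighter probe set had a mean of 1933 ± 85.7 (SD, n = 3) and the dimmer 2.7 ± 1.14. For AGL26 the means were 1166 ± 96.8 and 11.1 ± 12.2, and for AT4G16980 3904 ± 136 and 86.5 ± 37.1. The protein-coding gene AT2G32560, an F-box gene next to the lowest of all on 1 probe set, had a mean of 285 on the other. None of the 25 highest genes had a second probe set.

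**Figure D3:**
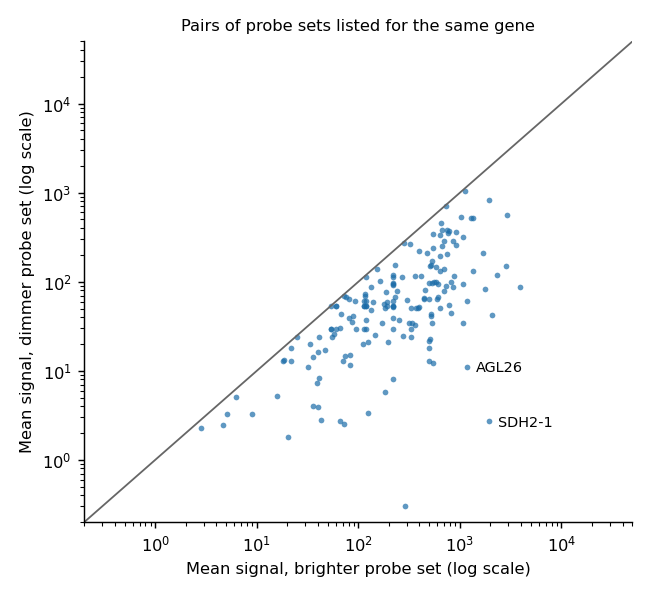
Mean MAS5 signals over 3 arrays of the 179 pairs of probe sets listed for the same gene, the brighter against the dimmer, both on log scales. The line marks equal signal; the points lie below it by a median of 1.51 on the log2(signal + 16) scale, where SDH2-1 and AGL26 differ most. Without the added 16, as drawn, AT2G32560 at the bottom (285 and 0.3) lies farthest from the line.

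The spread between the arrays depended first on signal. The median SD of log2(signal + 16) was 0.12 at mean signals over 1107, 0.20 from 143 to 236, 0.33 from 37.8 to 77.0 and 0.60 from 9.93 to 20.7, where the median ratio of the highest to the lowest array was 7.73. The added 16 holds down the SD of the dimmest 10%, at 0.22, although its median coefficient of variation was 67.7%. Each probe set's variance was therefore tested against the value fitted at its signal (limma's trended variance fit, upper-tail F test, Benjamini-Hochberg adjustment over all 22746 probe sets). At an adjusted p under 0.05 there were 2 of 22746 (0.00879%), both without a listed gene, and none of the 13513 ranked ones. At an unadjusted p under 0.05 there were 683 (3%), 366 of them ranked. On simulated data the same test recovered 32.3% of probe sets whose SD was raised 8-fold and 2% of those raised 4-fold, so most genes with a larger spread would be missed with 3 arrays.

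**Figure D4:**
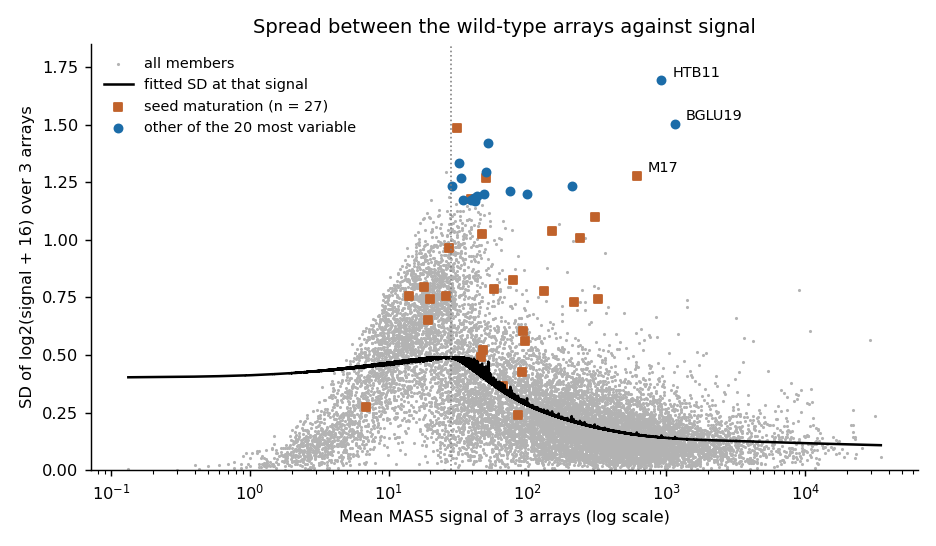
SD of log2(signal + 16) over the 3 arrays against mean signal (log scale) for the 13513 ranked probe sets, with the SD fitted at each signal (black line). The 20 most variable probe sets at or above the 25th percentile (dotted line, 27.9) and the 27 seed maturation genes are marked, and HTB11, BGLU19 and M17 stand far above the line at signals over 600.

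The ranked genes HTB11 and BGLU19 came closest to the threshold. HTB11, a histone H2B gene, was at 1295, 1310.4 and 157, so replicate 3 was low and the others alike. Its SD was 1.69, 11.2 times the fitted value (adjusted p = 0.0602, limma's F test). The other H2B genes HTB4, HTB1 and HTB2 were all highest in replicate 3, where HTB2 was at 1055 against 888 and 897, so the low value was not shared by these. Without replicate 3 the SD of HTB11 was 0.01. BGLU19, a beta-glucosidase of the family known from seeds and ER bodies, was at 926, 2265 and 270.0, with an SD of 1.50, 10.4 times the fitted value (adjusted p = 0.0703, limma's F test). Then came M17, a late embryogenesis abundant protein gene, at 399, 1236 and 201, with an adjusted p of 0.332 by the same F test.

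Of the 20 most variable probe sets, 16 had a mean under 100, where spread is large in general. Replicate 2 was highest and replicate 3 lowest in 10 of the 20, against 15.6% of all ranked probe sets. In HTB11 replicates 1 and 2, and in AT1G72100 replicates 1 and 3, were nearly equal, so their order rests on near ties. Besides BGLU19 and M17 the 10 included AT1G72100 and AT2G42560, both late embryogenesis abundant proteins, at 1.8, 89.6 and 1.7 and at 37.4, 77.2 and 2.7. ATOEP16-2, a plastid envelope protein known from seeds, was at 46.7, 100.4 and 4.6. The jacalin lectin genes AT3G21380 and AT1G05770 were at 121, 434 and 69.3 and at 81.5, 131 and 13.2, the copper amine oxidase gene AT1G31690 at 123, 153 and 20.8 on its more variable probe set and AT1G07795 at 46.2, 76.8 and 3.5. In all of these replicate 3 was the lowest. A second probe set for AT1G31690, at 645, 465 and 575, was lowest in replicate 2. AT4G30320, of the PR-1 family, was at 75, 71.7 and 2.9.

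Other variable genes had other orders. AT1G18550, a kinesin, was at 6.2, 19.6 and 131, AT2G04063 at 2.5, 7.6 and 86.3 and AT3G19610 at 1, 17.7 and 81.3, each highest in replicate 3. So were AT2G29150, a tropinone reductase homolog, at 4.3, 36.8 and 89.0, AT1G34440 at 2.1, 53.9 and 62.1 and AT1G55660 at 1.8, 27.4 and 74.4. AT2G06180 was at 76.0, 4 and 6, high in replicate 1 alone, and AT5G45320 at 72.0, 4.5 and 68.7 and AT5G48860 at 50.6, 2.6 and 69.5 were low in replicate 2 alone. The last probe set inside the 20 had an SD of 1.169 and the first outside, ROXY2, 1.167.

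Seed maturation genes, M17 itself among them, often showed the order seen in BGLU19. Of the 27 measured, 22 were lowest in replicate 3, against 31.6% of all ranked probe sets, 19 were highest in replicate 2, against 31.8%, and 16 showed both, against 15.6%. Their median signal was 72.4, 89.6 and 31.1 in replicates 1, 2 and 3. Within this list the highest after M17 were LEA18 at 379, 429 and 156 and AT2G28490, a cupin of the storage protein family, at 262, 546 and 107. Next was ICL, isocitrate lyase of the glyoxylate cycle that turns seed oil into sugar, at 220.3, 405 and 88.5. ICL is counted in the list but is not a late embryogenesis abundant, oleosin or storage protein gene. In LEA18, AT2G28490 and ICL replicate 2 was highest and replicate 3 lowest. The oleosins of the oil bodies were lower, with AT2G25890 at 75.5, 129 and 30.7 and OLEO3 at 92.2, 51.9 and 56.1, OLEO3 being highest in replicate 1. The lowest was AT1G03890, a cruciferin family storage protein, at 12.1, 4.8 and 3.7. The list was drawn up after values were seen, and 4 of the 20 most variable probe sets belong to it. Its counts therefore describe the list and test nothing. A first list of 12, chosen by gene name, was not wholly kept in it: its highest mean was 3848, above that of M17. In that first list 9 were lowest in replicate 3 and 6 showed the full order. The 2 unnamed probe sets past the threshold had the same order, at 875, 5143 and 340 and at 437, 3568 and 113.

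Markers of other tissues were few, and their orders differed. The root hair expansins EXPA7 and EXPA18 and the root peroxidase gene AT3G49960 were all lowest in replicate 3, with summed signals of 585, 559.8 and 377 in replicates 1, 2 and 3, and the linker histone HIS1-3 was at 708, 707 and 402. PYK10, known from roots too, was highest in replicate 3. Of the 4 stomatal and epidermal markers 1 was lowest in replicate 3, of the 4 flower and pollen markers 0, and their summed signals were 265, 244 and 278 and 44.7, 20.4 and 79.9. Of all ranked probe sets 31.6% were lowest in replicate 3. The 4 flower and pollen markers all lay below the 25th percentile, and 3 of them at or below 18.1, where values are noisy. These sets are too small for a contrast between tissues. The summed signal of the 9 Calvin cycle and photorespiration genes was 93712, 94445 and 100061. The part of tissue make-up, seedling age or handling in the order of the seed genes was not tested. In whole seedlings fewer cells of a type and less RNA per cell cannot be told apart.

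**Figure D5:**
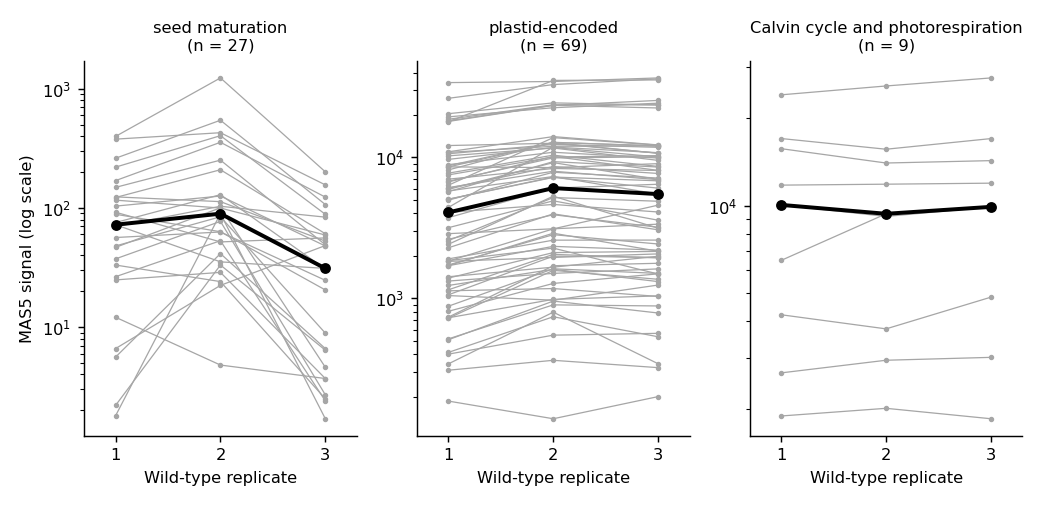
MAS5 signal (log scale) of each probe set in wild-type replicates 1, 2 and 3 for seed maturation, plastid-encoded and Calvin cycle and photorespiration genes. Grey lines join the values of a probe set and black lines the list medians, which are 72.4, 89.6 and 31.1 for seed maturation and 4069, 6055 and 5490.1 for plastid-encoded genes.

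Plastid-encoded genes varied in another way. Of 69, 61 were lowest in replicate 1, against 34.9% of all ranked probe sets and 58 of 140 nuclear genes of the thylakoid, carbon fixation and the cytosolic ribosome, and their signal in replicate 1 was a median of 0.738 of the mean of replicates 2 and 3. Every photosystem II, photosystem I and ATP synthase gene was lowest there, and 9 of the 15 plastid ribosomal protein genes. The smallest ratio of the 69, 0.390, was that of rpl36, a plastid ribosomal protein, at 4415, 11830.4 and 10796. For those nuclear genes the same ratio was 0.972. Mitochondrion-encoded probe sets were lowest in replicate 1 in 14 of 23. The hybridisation controls, RNA added in fixed amounts before hybridisation, were also lower there, with geometric means of 2144, 2742 and 2869, as were the control probe sets for 5S rRNA, at 692, 1328 and 1144, and for 25S rRNA, at 101, 164 and 146. The added poly-A controls lys, phe, thr and dap had geometric means of 334, 363 and 473, lowest in replicate 1 and highest in replicate 3. The part of labelling or RNA quality in the low plastid signals of replicate 1 was not tested.

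Other transcripts hardly differed between the arrays. The 10 most even probe sets at or above the median signal had SDs of at most 0.01 on the log2(signal + 16) scale. SPT, a bHLH transcription factor of growth and fruit development, was at 157, 157 and 158, AT3G46540 at 534, 535 and 536 and TUA1, an alpha-tubulin known from pollen, at 395, 394 and 395. The others were AT2G31670, AT2G35330, AT1G22160, GUT1 (a glycosyltransferase of xylan synthesis), AT4G21620, AT1G49750 and AT3G01790. They were chosen for their small SD among 6757 probe sets, so no test of evenness was made. None of the 12 proposed reference genes was among them, and AT4G33380 of that list ran from 606 to 1168.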

How the data were processed

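RNA of 3 wild-type samples was hybridised to 1 ATH1 array each. MAS5 made the deposited intensities from the scanned arrays, according to the submitters' processing notes, which give no version. The mean of each array without the lowest and highest 2% of probe sets was 500.0, so each array had been scaled to a common level, which assumes that the overall level is alike. The number of arrays limits the precision, and MAS5 signals near background are noisy.

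Genes came from the platform's annotation: of 22746 probe sets that are not controls, 13513 had 1 gene, 503 several and 8730 none listed. Symbols, gene types, gene lengths and plastid membership came from RefSeq (TAIR10.1), where 13436 of the 13513 matched, and mitochondrial genes were taken by symbol among the rest. No build is named for the array, so no coordinates are given. Roles of genes are background knowledge.

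Means, SDs and ranks were taken on the linear scale (pandas 2.3.3). For the spread, the signals were taken to log2(signal + 16) as deposited, and the variance of each probe set was tested with limma 3.58.1 in R 4.3.3 (fitFDistRobustly with signal as covariate, 6.33 prior degrees of freedom). The test was tried on simulated data made from these means, in which 3.92% of its calls were false. No comparison between groups was made.

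Members, lists and tests were chosen with earlier results of these data known. Chance matches were removed from the lists after they were applied, and the lists by locus (cytosolic ribosome, nuclear thylakoid, Calvin cycle and photorespiration, seed maturation) and the plastid-encoded list were added after values were seen. They held 213, 56, 35 and 59 loci, of which 121, 10, 9 and 27 were measured. The rule for names took the 25 highest probe sets, from each list with at least 5 measured the 2 highest (4 where over 20 were measured) and the lowest, the 10 nearest the median, the 10 lowest, the 20 with the largest SD at or above the 25th percentile of signal, the 10 with the smallest SD at or above the median, and the 3 most unlike pairs of probe sets of a gene. Other genes were named after their values were seen. Promoter motifs and protein lengths were not analysed here. Alternatives are given with the closing observations.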

Additional observations from a re-analysis of the deposited data

How the results depend on the processing

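Of the 25 highest probe sets, 24 to 25 stayed among the 25 under each of the 7 alternatives for the ranking. The count past the variance test, 2 with a pseudocount of 16, was 8 with a pseudocount of 1, 0 with 64, 24 without the dimmest 25% of probe sets and 0 with a fit that was not robust, and it ranged from 0 to 2 when a replicate was left out. Among ranked probe sets it was 0, but 4 with a pseudocount of 1 and 13 without the dimmest 25%. Every one of the 20 most variable genes had its SD moved by over 1.5 times when some replicate was left out; that of BGLU19 was 0.90 without replicate 3 and that of M17 0.66 without replicate 2. The limit for low signal decides how many genes lie near background: 1353 were in the lowest 10%, 372 were so on every array, and 2386 lay at or below the brightest trp probe set, a limit added after seeing the data; 1081 to 1105 of the 1353 stayed in the lowest 10% without a replicate. The planned limits from the other bacterial controls were not run, because their RNA had been added. Without probe sets that may match several transcripts, the median was 65.0 for mitochondrion-encoded genes, 138 for defence peptides and 11.9 for pseudogenes, against 81.7, 114 and 13.0. The full order of the seed genes held for 6 of 12 in the first list, chosen by gene name. Of 69 plastid genes 61 were lowest in replicate 1 as deposited and 58 after quantile normalization. Scaling to the hybridisation or the poly-A controls raises every gene of replicate 1 alike against the other arrays: 28 or 20 plastid genes were then lowest there, and of the 140 nuclear genes set beside them 2 or 3, against 58 as deposited. These alternatives for the seed and plastid genes were chosen after seeing the data, and the cause of each change was not tested. No paired analysis was possible because 1 group alone was analysed.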
